A study of Mus musculus with 8 samples.

Results

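The nuclear genes of respiratory complexes II to V were compared between WT and DKO S0 cells of the mouse fetal liver. The genes were chosen by symbol alone. They are the protein-coding genes Sdha, Sdhb, Sdhc, Sdhd and Cyc1 and those whose symbol starts with Uqcr, Cox4, Cox5, Cox6, Cox7, Cox8 or Atp5. In the mouse annotation 49 genes met this rule, of which 48 were among the 52636 genes of the count table. The other one, a second identifier of Atp5o, was not used here. By prefix, 4 of the 48 genes belong to complex II, 9 to complex III, 18 to complex IV and 17 to complex V. Usmg5 and Atpif1, which also code for proteins of the ATP synthase, carry other prefixes and were not counted as members.

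The respiratory chain of the inner mitochondrial membrane passes electrons from the citric acid cycle to oxygen. Complex II is succinate dehydrogenase and takes electrons from succinate, complex III hands them to cytochrome c, and complex IV hands them to oxygen. The ATP synthase, complex V, uses the proton gradient that complexes I, III and IV build. Complex II is made from nuclear genes alone, while the other complexes combine nuclear subunits with subunits coded in mitochondrial DNA. Early erythroid cells make many mitochondria, where heme synthesis begins and ends, and lose them as they mature.

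The samples were 4 WT and 4 DKO libraries of bulk RNAseq. S0 cells were sorted from livers at E12.5 as live cells negative for a lineage cocktail, CD71 and Ter119, which makes them the earliest of the erythroid stages that this sort separates. DKO embryos lacked both Vps13a and Vps13c, which code for proteins that transfer lipids between membranes at organelle contact sites, in a C57BL/6J background. The Vps13a allele was tm1d, made with FLP and β-actin-Cre, and Vps13c carried a germline knockout. DKO embryos came from parents that all lacked Vps13c, so that WT embryos came from other matings, and litter and genotype cannot be told apart. Whether each library came from 1 liver is not stated in the sources used here.

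The deposited whole-number counts summed to 42114489 to 50886469 per WT library and 36981439 to 42587815 per DKO library. The 48 genes took 1.63% to 1.75% of all counts in WT and 1.70% to 1.97% in DKO. Vps13a fell to 0.409 of its WT mean in DKO (adjusted p = 0.00247), while the count of Vps13c over its whole gene (583 in WT and 816 in DKO) does not check the labels. Y-linked genes were expressed in all 4 WT libraries and in DKO 3 only. Markers of other cells differed between the groups for some lists, and their part in the results below was not tested. Of 10 mesenchyme markers 9 were higher in DKO, with summed normalized counts of 2187 to 6078 in WT and 13360 to 47325 in DKO, highest in DKO 1. The 13 hepatoblast markers, led by Afp, Trf and Alb, summed to 721455 to 977539 in WT and 216605 to 827409 in DKO, so that the groups overlapped. In edgeR 0 of the 13 passed, with 5 at an unadjusted p under 0.05, and DESeq2 called 5. Of the 15 erythroid markers 2 were higher, among them Epor, with sums of 80849 to 89316 in WT and 64522 to 105944 in DKO. Of 10 progenitor markers 6 were lower, with sums of 40260 to 49925 in WT and 20589 to 27441 in DKO. Of 8 neutrophil and myeloid markers tested 5 were lower, with sums of 103823 to 135268 in WT and 5399 to 45776 in DKO, lowest in DKO 1, although the lineage cocktail holds antibodies against myeloid cells. Of the other markers tested, 3 of 10 endothelial, 1 of 9 macrophage and 1 of 9 megakaryocyte genes were lower and 1 of 5 neural genes was higher. The macrophage sums, 4886 to 7387 in WT and 1382 to 4383 in DKO, did not overlap, while the endothelial, megakaryocyte and neural sums did.

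In DKO S0 cells, 17 genes of complexes III, IV and V had higher RNA than in WT, most of them coding for small subunits. The large catalytic subunits of complexes III and V did not pass the test, and Sdha of complex II was the 1 gene that was lower. The threshold was an adjusted p of 0.05 in edgeR's quasi-likelihood test, with adjustment over all 17378 genes that had enough counts. Of the 45 members tested, 17 were higher in DKO, or 37.8%, against 10.7% of all genes tested. Sdha alone was lower, or 2.22% of the members, against 10.8% of all genes. The median log2 fold change was 0.22 over the members and 0.03 over all genes. Changes were small, since only Cox6a2 passed the test with a log2 fold change above 1, which 6.19% of all genes did, and no member passed below -1, against 2.43% of all genes. All 4 DKO libraries lay above all 4 WT libraries for 15 members (13.5% of all genes tested) and below them for 3, Sdha, Atp5b and Atp5e (14.6% of all genes). In bulk RNA, fewer cells of a type and less RNA per cell cannot be told apart.

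The calls differed with transcript length. Of the 30 members with a transcript of at most 1000 bases, 16 were higher, while of the 15 longer ones 1 was higher and 1 was lower. When the counts were corrected for transcript length and GC content, 1 of 45 members was higher (Cox6a2) and 5 were lower (Sdha, Sdhd, Cox6a1, Atp5e and Atp5g2). Of all genes tested, 8.25% were higher and 9.09% lower under this correction. The median of the members was -0.04. Of the 18 calls only those of Sdha and Cox6a2 were kept. The uncorrected values are given in what follows, and the comparison with other short genes is given after them.

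**Figure D1:**
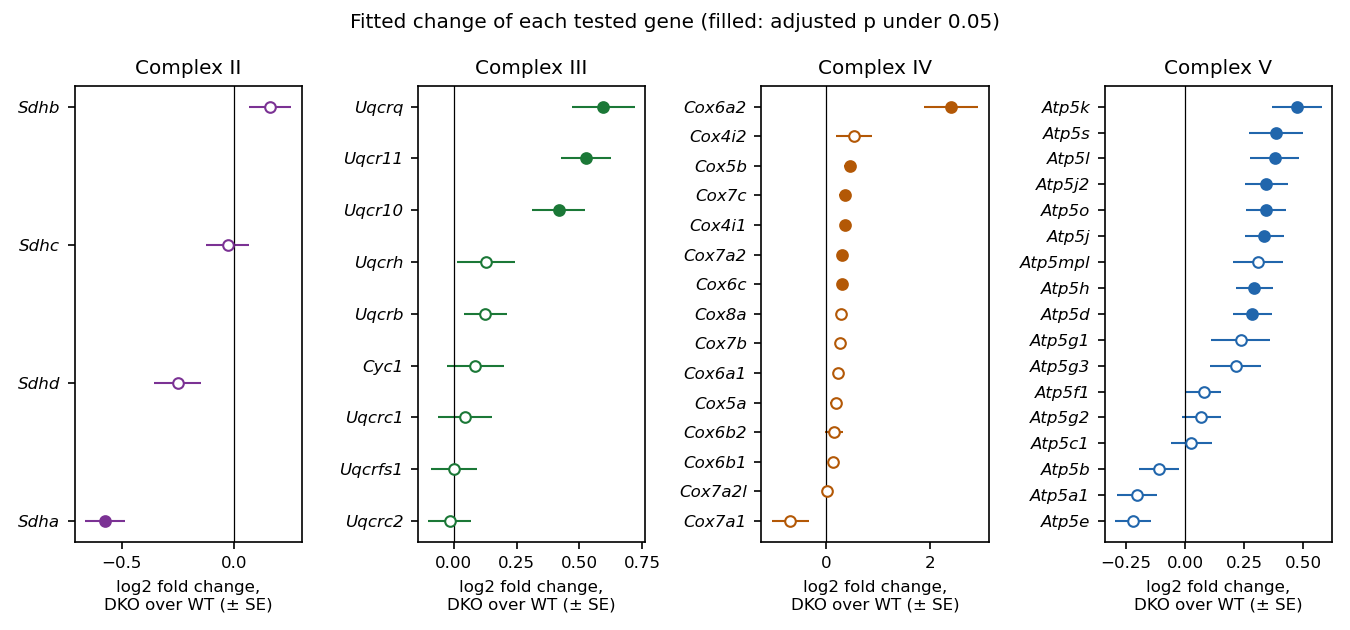
Fitted log2 fold change (DKO over WT, horizontal axis, with a different scale in each panel) of each of the 45 genes tested, with its standard error, by complex. Filled points passed an adjusted p of 0.05: 1 gene to the left of 0 in complex II, and 3, 6 and 8 genes to the right in complexes III, IV and V.

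By complex, 1 of 4 genes was called in complex II, and it was lower. In complex III 3 of 9 were called, in complex IV 6 of the 15 tested and in complex V 8 of 17, and these were all higher. The median log2 fold changes were -0.14, 0.13, 0.28 and 0.29, in that order. In each complex the DKO libraries differed among themselves. For complex V the medians against the WT mean were 0.11 in DKO 1, 0.30 in DKO 2, 0.39 in DKO 3 and 0.22 in DKO 4 on the log2 scale. For complex IV they were 0.07, 0.36, 0.39 and 0.23. DKO 1 was the closest to WT in both, and WT 3 had the highest WT medians (0.09 for complex V and 0.12 for complex IV). Without DKO 1 the count rose to 25 members higher and 1 lower, and without WT 1 or WT 4 it fell to 4 higher and 1 lower. Of all genes tested, 10.8% were higher without DKO 1, 4.74% without WT 1 and 5.26% without WT 4. Sex differed with genotype. With the presence of Y-linked RNA as a covariate, the DKO effect rested on DKO 3 alone, since no WT library lacked that RNA. The median log2 fold change of the members was then 0.37, and this fit cannot separate sex from genotype.

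**Figure D2:**
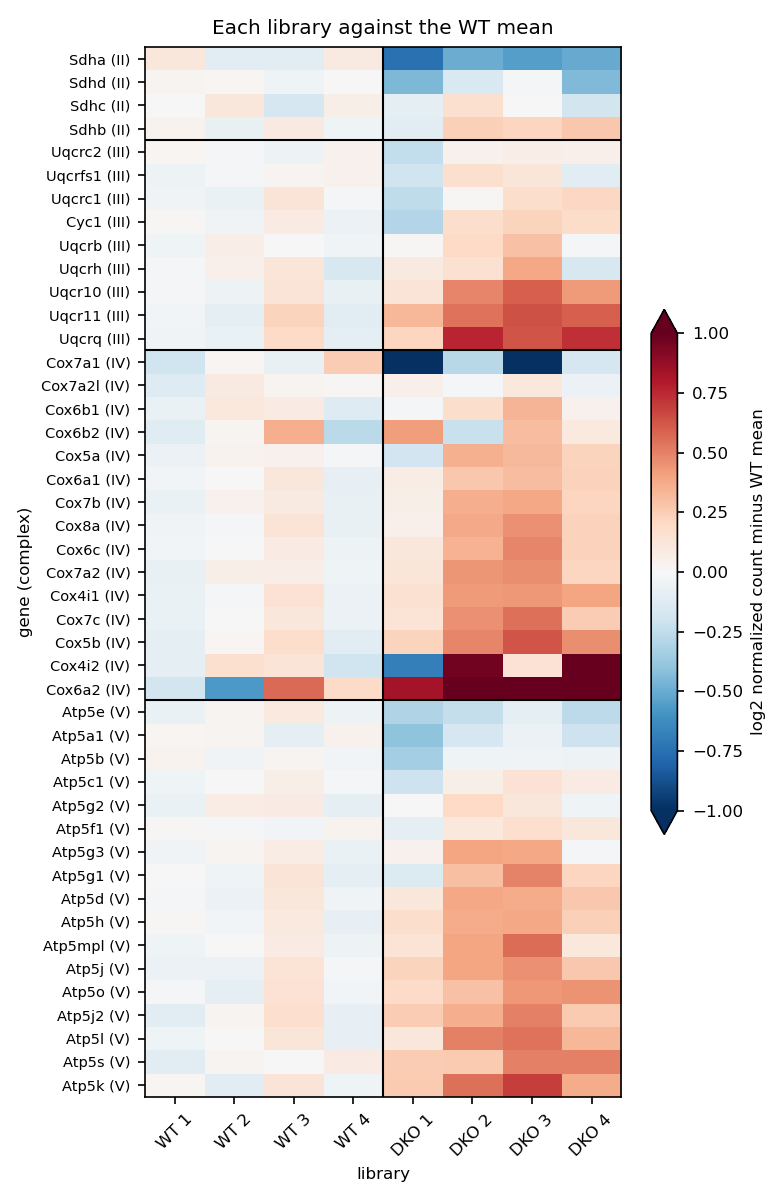
Log2 normalized count of each tested gene (rows, grouped by complex) in each of the 8 libraries (columns) minus the WT mean of that gene, with colours clipped at 1 in either direction. Sdha is below the WT mean in all 4 DKO libraries, the genes at the foot of complexes III, IV and V, where rows are ordered by fold change, are above it, and DKO 1 is the palest DKO column for most of the higher genes.

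In complex II the catalytic subunit was lower in DKO. Sdha (ENSMUSG00000021577, GRCm38 chromosome 13, 74322254 to 74350280, minus strand) codes for the flavoprotein that oxidises succinate. Its normalized counts were 20738, 17849, 17857 and 20437 in the WT libraries and 11435, 13560, 13062 and 13513 in the DKO libraries. The highest DKO value lay below the lowest WT value. The DKO mean was 0.671 of the WT mean, a log2 fold change of -0.58 (SE 0.09, edgeR adjusted p = 0.00395). An exact two-sided permutation test gave p = 0.0286, the smallest that 4 against 4 libraries allow. Leaving out any 1 library kept the call, with adjusted p between 0.00253 and 0.0187. After correction for GC content and length the log2 fold change was -0.47 (adjusted p = 0.0086), and with the sex covariate it was -0.56 (adjusted p = 0.0618).

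The partners of Sdha did not pass the test. Sdhb, the iron-sulfur subunit that passes electrons on from Sdha, had 18264, 16933, 18972 and 17300 in the WT libraries and 16618, 21028, 20731 and 21508 in the DKO libraries. Thus 3 DKO libraries lay above every WT library and DKO 1 lay below them all (log2 fold change 0.16, adjusted p = 0.253). Sdhc and Sdhd code for the membrane anchors. Sdhc had a log2 fold change of -0.03 (adjusted p = 0.861) and ran from 6866 to 8320 in the WT libraries and from 6778 to 8606 in the DKO libraries. Sdhd had 22274 to 23488 in WT and 16838 to 22851 in DKO, where DKO 3 overlapped the WT range (log2 fold change -0.25, adjusted p = 0.118). It was lower after the correction for GC content and length (log2 fold change -0.35, adjusted p = 0.0339). The ratio of Sdha to Sdhb, with both levels taken per transcript length, was 0.425 ± 0.0415 in WT and 0.255 ± 0.011 in DKO (mean ± SD of 4 libraries), and the groups did not overlap. The same held for Sdha to Sdhc, at 2.73 ± 0.264 against 1.87 ± 0.213. For Sdha to Sdhd the ratio was 0.354 ± 0.0266 in WT and 0.287 ± 0.0392 in DKO, and the groups overlapped.

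**Figure D3:**
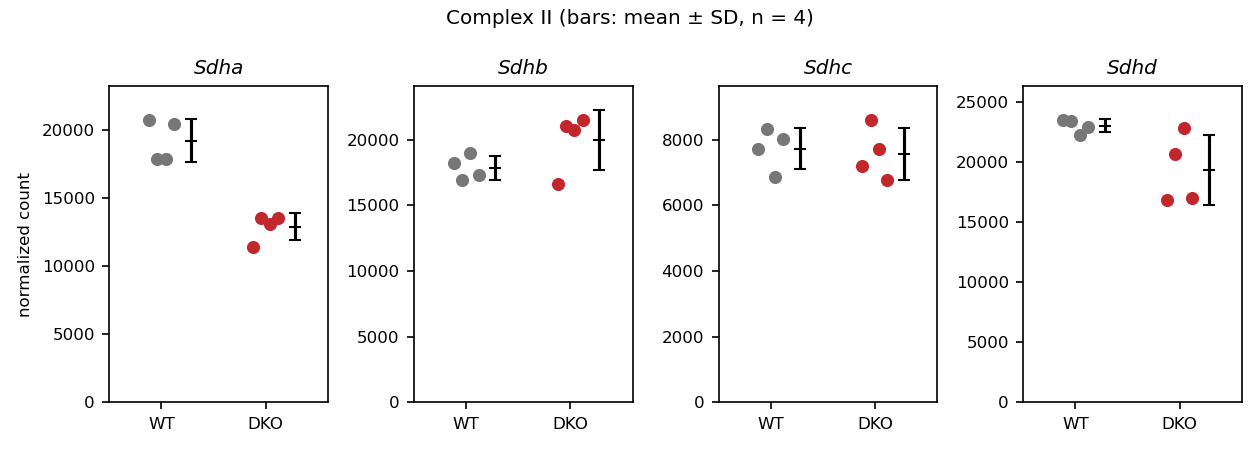
Normalized counts (vertical axis, from 0) of the 4 complex II genes in each WT and DKO library, with the mean ± SD of 4 libraries beside the points. The DKO points of Sdha lie between 11435 and 13560, below all WT points, while those of Sdhb, Sdhc and Sdhd overlap the WT range.

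The promoters of these genes were examined because nuclear respiratory genes are known to share binding motifs for NRF1 and for the ETS factor GABP. RefSeq windows of GRCm38.p6, from 250 bases before to 50 bases after a start, were found for 34 of the 48 members. In them, 5 motifs were searched on both strands. They were CGCATGCG for NRF1, CCGGAAG for ETS factors, GGGCGG for Sp1, AAGATGGC for YY1 and TCAAGGTC for ERR. Only exact matches to these letters were counted, so variants of a binding site would be missed. The NRF1 letters were present in 7 of the 34 promoters (20.6%) against 2.07% of the 27025 genes with a window, and the ETS letters in 12 (35.3%) against 9.93%. Sp1 letters were in 12 (35.3%) against 38.2%, YY1 letters in 2 (5.88%) against 3.19% and ERR letters in 2 (5.88%) against 1.18%. Among the 12 members with a window that were higher in DKO, 4 had the NRF1 letters and 5 the ETS letters. Among the 19 that were not called, 3 had the NRF1 letters and 7 the ETS letters.

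The 5 windows below were picked after the values were seen, to set the 1 lower gene beside its partner subunit and beside 3 of the higher genes. Each is read 5′ to 3′ on the strand of its gene, and capitals mark a match to any of the 5 motifs in either orientation. The Sdha window lies at chr13:74350191-74350490 on the minus strand and holds no exact match to any of the 5 motifs. Variant sites in it were not searched. The Sdhb window lies at chr4:140961021-140961320 on the plus strand, with 3 Sp1 matches and an ETS match. Uqcr11 (chr10:80406772-80407071, minus strand) and Atp5k (chr5:108434350-108434649, minus strand) each hold an NRF1 and an ETS match. Cox5b (chr1:36691237-36691536, plus strand), also higher in DKO, holds no exact match.
Sdha: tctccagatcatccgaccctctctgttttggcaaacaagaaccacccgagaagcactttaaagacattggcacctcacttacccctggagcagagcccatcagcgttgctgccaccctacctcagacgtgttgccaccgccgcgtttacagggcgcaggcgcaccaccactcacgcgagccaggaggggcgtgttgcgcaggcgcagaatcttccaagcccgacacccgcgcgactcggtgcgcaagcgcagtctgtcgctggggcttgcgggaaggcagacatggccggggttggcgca
Sdhb: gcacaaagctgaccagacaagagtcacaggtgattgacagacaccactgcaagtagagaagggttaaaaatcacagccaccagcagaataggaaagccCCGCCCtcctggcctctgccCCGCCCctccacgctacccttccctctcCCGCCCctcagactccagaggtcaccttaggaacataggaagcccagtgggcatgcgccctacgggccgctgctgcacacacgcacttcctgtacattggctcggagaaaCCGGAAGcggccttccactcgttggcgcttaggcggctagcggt
Uqcr11: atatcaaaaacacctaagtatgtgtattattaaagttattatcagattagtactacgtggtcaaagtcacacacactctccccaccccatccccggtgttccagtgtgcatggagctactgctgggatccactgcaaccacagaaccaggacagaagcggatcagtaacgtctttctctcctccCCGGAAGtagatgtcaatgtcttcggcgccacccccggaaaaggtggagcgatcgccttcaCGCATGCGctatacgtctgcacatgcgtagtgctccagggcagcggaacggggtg
Atp5k: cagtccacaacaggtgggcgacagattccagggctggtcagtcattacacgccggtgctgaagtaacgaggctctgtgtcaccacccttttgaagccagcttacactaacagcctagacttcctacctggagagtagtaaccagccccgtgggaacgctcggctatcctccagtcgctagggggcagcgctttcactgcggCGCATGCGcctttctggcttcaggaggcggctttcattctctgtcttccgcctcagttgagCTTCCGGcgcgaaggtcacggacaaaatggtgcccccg
Cox5b: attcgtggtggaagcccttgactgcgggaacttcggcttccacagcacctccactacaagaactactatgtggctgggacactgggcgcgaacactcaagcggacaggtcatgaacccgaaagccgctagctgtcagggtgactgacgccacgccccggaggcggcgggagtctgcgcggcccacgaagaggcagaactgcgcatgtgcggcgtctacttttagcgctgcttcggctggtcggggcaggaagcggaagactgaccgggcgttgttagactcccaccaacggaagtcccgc

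In complex III the 3 genes that rose code for small accessory subunits next to the core. Uqcrq, the ubiquinone-binding protein, stood at 12490, 12211, 14600 and 11937 normalized counts in the WT libraries and at 14854, 21669, 19704 and 21175 in the DKO libraries. All DKO values were higher than all WT values, although DKO 1 exceeded WT 3 only slightly (log2 fold change 0.60, SE 0.13, adjusted p = 0.0117). Uqcr11 had 14249, 13680, 16995 and 13456 in WT and 18277, 21219, 22567 and 22023 in DKO, again without overlap. Its log2 fold change was 0.53 (SE 0.10, adjusted p = 0.00844), the smallest p of the higher members. Uqcr10 rose by 0.42 on the log2 scale (adjusted p = 0.0218), with DKO 1 at 18500.0 inside the WT range of 16055 to 18510. After correction for GC content and length the log2 fold changes of Uqcrq, Uqcr11 and Uqcr10 were 0.06, -0.01 and -0.05.

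The electron-carrying and core subunits of complex III gave values near WT. Cyc1, cytochrome c1, averaged 17922 ± 783 normalized counts over the WT libraries and 19012 ± 2938 over the DKO libraries (mean ± SD, n = 4, log2 fold change 0.09). DKO 1 stood at 14626 and the other DKO libraries at 20206 to 20874, on either side of the WT range. Uqcrfs1, the Rieske iron-sulfur protein, had a log2 fold change of 0.00, and the core proteins Uqcrc1 and Uqcrc2 had 0.04 and -0.02. None of the 4 passed the test (adjusted p from 0.634 to 0.99). Uqcrh, the hinge protein, and Uqcrb had log2 fold changes of 0.13 each and did not pass either.

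In complex IV, Cox5b and Cox4i1 had the smallest p of the abundant genes. Cox4i1, a subunit that takes part in regulation by ATP, stood at 32667, 33880, 37781 and 32888 normalized counts in the WT libraries and at 38038, 46112, 46177 and 45117 in the DKO libraries. DKO 1 and WT 3 lay close to each other and the other 3 DKO libraries stood well above WT (log2 fold change 0.35, SE 0.09, adjusted p = 0.0213). Cox5b, a zinc-binding subunit, had 10868, 11711, 13078 and 10706 in WT and 13481, 16234, 17898 and 15944 in DKO (log2 fold change 0.46, adjusted p = 0.0153). Cox7c, Cox7a2 and Cox6c, small subunits with a single membrane span, rose by 0.36, 0.31 and 0.30 on the log2 scale, each without overlap (adjusted p = 0.0334, 0.0408 and 0.041). Cox5a, which binds thyroid hormone metabolites, had a log2 fold change of 0.19 and Cox8a one of 0.28, and neither passed (adjusted p = 0.259 and 0.0684). After correction the log2 fold changes were -0.02 for Cox4i1 and 0.27 for Cox5b (adjusted p = 0.0545).

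Of the tissue-specific isoforms of complex IV, Cox6a2, Cox7a1 and Cox4i2 were rare in these cells, while Cox6b2 stood at 0.138 ± 0.0192 of Cox6b1 per transcript length in WT. Cox6a2, the isoform of heart and skeletal muscle (ENSMUSG00000030785, chromosome 7, 128205435 to 128206387, minus strand), had 66, 61, 135 and 103 raw counts in WT. In DKO it had 134, 545, 207 and 682. In normalized counts the WT libraries held 52.5 to 117 and the DKO libraries 141, 634, 253 and 713, so that the groups did not overlap and the DKO libraries spread widely. The log2 fold change was 2.40 (SE 0.52, adjusted p = 0.0129), and it was 2.11 after correction for GC content and length (adjusted p = 0.0232). With the sex covariate it was 1.62 (adjusted p = 0.2). Per transcript length Cox6a2 stood at 0.0033 ± 0.00101 of Cox6a1, its common counterpart, over the WT libraries and 0.0148 ± 0.00943 over the DKO libraries (mean ± SD, n = 4).

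Some markers of muscle were also higher in DKO. Of 10 muscle markers tested 5 were higher in DKO (Tnnt1, Tnnt2, Actc1, Myog and Acta1), and the 12 markers of the list summed to 1896 to 2544 normalized counts in WT. In DKO they summed to 5587, 2966, 6876 and 4888, so that the groups did not overlap for these sums either. DKO 2, with more Cox6a2 than DKO 1 and DKO 3, had the lowest muscle sum of the DKO libraries, and DKO 3 had the highest muscle sum but less Cox6a2 than DKO 2 and DKO 4. The myosin genes Myh6 and Myh7 were near 0, with mean normalized counts of 0.861 and 7.33 over the WT libraries and 0.788 and 3.71 over the DKO libraries. They do not stand for all genes of heart muscle, and Tnnt2 and Actc1 were among the 5 higher markers. The part of muscle RNA in the Cox6a2 value was not tested. The antisense neighbour Itgad, whose exons overlap those of Cox6a2, had mean normalized counts of 11.9 (WT) and 4.94 (DKO).

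Cox4i2, the isoform known from lung and from low oxygen, stood at 526, 629, 616 and 489 normalized counts in the WT libraries and at 349, 1098, 623 and 1216 in the DKO libraries. DKO 2 and DKO 4 lay above the WT range, DKO 1 below it and DKO 3 within it, and the gene did not pass (log2 fold change 0.54, SE 0.34, adjusted p = 0.288). Those 2 libraries were also the highest for Cox6a2. Cox7a1, the heart and muscle isoform, had 64.1, 121, 52.5 and 131 in the DKO libraries against 128 to 176 in the WT libraries, so that DKO 4 alone reached the WT range (log2 fold change -0.69, adjusted p = 0.202). Relative to Cox7a2 and per transcript length it stood at 0.0242 ± 0.00368 over the WT libraries and at 0.0122 ± 0.00539 over the DKO libraries (mean ± SD, n = 4), with no overlap. Cox7a2l, which takes part in joining complexes III and IV, had a log2 fold change of 0.02. Cox6b1 and its testis isoform Cox6b2 had 0.14 and 0.15, and Cox6a1 and the X-linked Cox7b had 0.22 and 0.26, and none of these passed. Cox6a1 was lower after correction for GC content and length (log2 fold change -0.26, adjusted p = 0.0207).

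The remaining isoforms of complex IV were at or near the limit of detection. Cox8b had 0 counts in all 8 libraries, which allows up to 3 counts in each. Cox8c had 3 counts in WT 1 and 0 elsewhere, and Cox7b2 had 7 counts in DKO 1 and 0 elsewhere. These 3 genes had too few counts to be tested.

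In complex V the subunits of the catalytic core did not pass, and 8 other genes were higher. The catalytic head is built from Atp5a1 and Atp5b, the alpha and beta subunits, around Atp5c1, the gamma subunit. Atp5b had the highest count of all members, with 82818, 79004, 82468 and 79383 in the WT libraries and 63905, 78607, 78895 and 78007 in the DKO libraries. Each DKO library lay below each WT library, but 3 of them by little, and the fit across all genes did not call it (log2 fold change -0.11, SE 0.08, adjusted p = 0.372). Atp5a1 had 49077 to 54166 in WT and 39773 to 50296 in DKO (log2 fold change -0.20, adjusted p = 0.115), and Atp5c1 had a log2 fold change of 0.03. The ratio of Atp5a1 to Atp5b per transcript length was 0.503 ± 0.031 against 0.472 ± 0.0196 (WT and DKO), with overlap. Of the other subunits of the central stalk, Atp5d, the delta subunit, rose (log2 fold change 0.29, adjusted p = 0.0374). Atp5e, the epsilon subunit, ran from 10074 to 11253 in the WT libraries and from 8567 to 9870 in the DKO libraries, without overlap (log2 fold change -0.22, adjusted p = 0.0637). Under the correction Atp5e was lower by more than any other member of complex V (log2 fold change -0.68, adjusted p = 0.000512) and Atp5d did not pass (-0.13).

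Subunits of the peripheral stalk and of the membrane part made up most of the other higher genes of complex V. Atp5k, the e subunit at the dimer interface, stood at 7960, 7292, 8605 and 7602 normalized counts in the WT libraries and at 9418, 11488, 12680 and 10132 in the DKO libraries. The groups did not overlap (log2 fold change 0.47, SE 0.10, adjusted p = 0.0136). Atp5l (g subunit) and Atp5j2 (f subunit) rose by 0.38 and 0.34 on the log2 scale, with DKO 1 within the WT range for Atp5l. In the stalk, Atp5o rose by 0.34, Atp5j by 0.34 and Atp5h by 0.29 on the log2 scale, each without overlap, while Atp5f1, the b subunit, had 0.08 and did not pass. Adjusted p lay between 0.0194 and 0.029 for these 5 higher genes. Atp5s, coupling factor B, was rarer than the others at 889 ± 48.1 in WT and 1162 ± 114 in DKO and rose by 0.39 on the log2 scale (adjusted p = 0.0384). It was the 1 higher gene with a transcript above 1000 bases.

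The ring of c subunits comes from Atp5g1, Atp5g2 and Atp5g3, which code for the same mature protein with different import sequences. None of them passed the uncorrected test (log2 fold changes 0.24, 0.07 and 0.21). Atp5g1 gave 43.8% ± 1.07 of their summed normalized counts over the WT libraries and 44.7% ± 3.24 over the DKO libraries, and Atp5g3 gave 42.6% ± 0.696 and 42.9% ± 2.49 (mean ± SD, n = 4). Reads shared by the similar coding sequences of the 3 genes may have been split among them, which makes these shares uncertain. After correction for GC content and length Atp5g2 was lower (log2 fold change -0.42, adjusted p = 0.00764), and Atp5g1 and Atp5g3 did not pass (-0.17 and -0.04).

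Levels per transcript length ordered the genes within complexes. In WT, Cox4i1 was highest at 1049 CPM per kilobase of transcript, followed by Atp5b at 962, Uqcr10 at 889, Atp5g1 at 850 and Cox6a1 at 831. In complex II the WT levels were 426 for Sdhd, 356 for Sdhb, 151 for Sdha and 55.5 for Sdhc, and in DKO they were 358, 398, 101 and 54.4. The means of Sdhb and Sdhd thus changed places, although neither gene passed the test. At the low end stood Cox4i2 at 17.7 in WT, Atp5s at 13.6, Cox7a1 at 8.58 and Cox6a2 at 2.75.

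**Figure D4:**
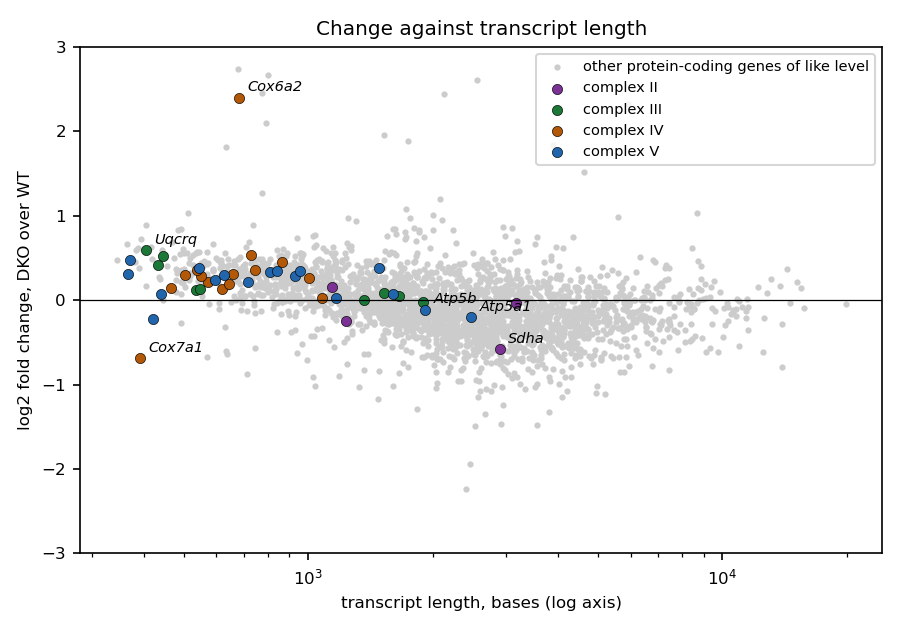
Log2 fold change (DKO over WT) against transcript length (log axis) for the 45 members, coloured by complex, and for 2561 other protein-coding genes whose mean level reached the 10th percentile of the members (grey; 3 more lie beyond the vertical axis). Of the members, 28 of the 30 with at most 1000 bases lie above 0, as do 9 of the 15 longer ones, with Cox6a2 far above, and Cox7a1 and Sdha below, the middle of the genes of like length.

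The relation with transcript length was shared with genes outside the member list. Only the members were taken out of the other genes compared here, so subunits of complex I could be among them. Over the 45 members the Spearman correlation of the log2 fold change with length was -0.41, and over 2564 other protein-coding genes that reached the 10th percentile of the members' mean normalized count it was -0.43. These points share the same 8 libraries and are not independent. Of 34 such genes with at most 500 bases 70.6% were higher in DKO, against 4 of 9 members (44.4%). Of 299 such genes with over 500 and up to 1000 bases 40.1% were higher, against 12 of 21 members (57.1%). For over 1000 and up to 2000 bases the shares were 12.4% of 783 genes and 1 of 12 members (8.33%). For over 2000 and up to 3000 bases, 31.6% of 618 genes were lower, as was 1 of 2 members, Sdha. Above 3000 bases 34.1% of 830 genes were lower (median -0.19), while the 1 member, Sdhc, had -0.03 and was not called. The medians of the other genes in the 4 shorter ranges were 0.43, 0.28, 0.01 and -0.20, and those of the members were 0.31, 0.30, 0.04 and -0.39. Cytosolic ribosomal proteins, another class of short transcripts, were higher for 64 of 84 genes (median log2 fold change 0.40) and for 16 after the joint correction (0.13). Of 78 mitochondrial ribosomal proteins 15 were higher and 4 lower (median 0.17), and after it 9 and 7 (0.04).

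A correction for transcript length alone, chosen after the data were seen, left 1 member higher and 4 lower, and a correction for GC content alone left 15 higher and 2 lower. Of all genes, 9.12% were higher and 8.46% lower with length alone, and 9.58% and 10.7% with GC content alone. After the joint correction the medians were -0.19 for complex II, -0.05 for complex III, -0.03 for complex IV and -0.04 for complex V. Of the 17 higher members 6 had a value below 0, namely Cox4i1, Cox6c, Uqcr10, Uqcr11, Atp5d and Atp5k, with none of these 6 past the threshold. The members that passed under the correction were Cox6a2 (higher) and Sdha, Sdhd, Cox6a1, Atp5e and Atp5g2 (lower).

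**Figure D5:**
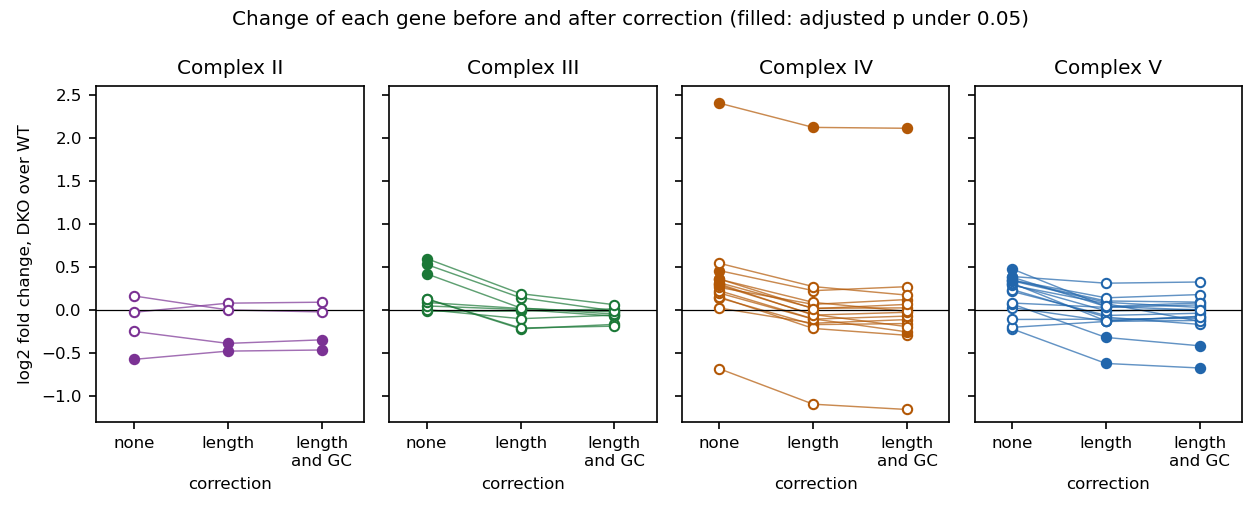
Log2 fold change (DKO over WT) of each tested gene without correction, after correction for transcript length and after correction for length and GC content, by complex, with filled points at adjusted p under 0.05. Of the 17 filled points above 0 on the left, 1 (Cox6a2) is filled after either correction, and Sdha is filled and below 0 in all 3.

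Other genes of the same pathways were counted from lists. Genes taken for complex I by the prefix Nduf, without the Ndufaf assembly factors, gave 20 higher (52.6%, against 10.7% of all genes tested) and 1 lower of 38. The prefix does not show that each is a subunit of complex I. Their median was 0.34, and after the joint correction 5 were higher, with a median of 0.05. The 6 mitochondrially encoded subunits of complexes III to V gave 5 higher, with a median of 0.76, and 4 of them stayed higher after the correction. Among these mt-Co1 rose by 0.76 on the log2 scale (adjusted p = 0.00115), mt-Cytb by 0.63, mt-Atp6 by 0.83 and mt-Co3 by 0.76, and mt-Co2 rose too. With the sex covariate, DKO 3 alone stands against WT. The log2 fold changes were then 0.73 for mt-Co1, 1.09 for mt-Co2, 0.99 for mt-Co3, 0.85 for mt-Cytb and 1.04 for mt-Atp6. The mitochondrial and nuclear subunits of complexes III to V thus had different medians, a difference that was not tested. Atpif1, the inhibitor of the ATP synthase, rose by 0.57 (adjusted p = 0.00748), and by 0.22 after the correction (adjusted p = 0.105). Cycs, the somatic cytochrome c, had a log2 fold change of 0.19 and did not pass.

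Assembly factors had calls in both directions. For complex IV, 4 of 26 were higher (Cox17, Higd1a, Cox14 and Pet100, with log2 fold changes of 0.59, 0.84, 0.32 and 0.50) and 2 lower (Cox15, which makes heme a, at -0.72 and Coa5 at -0.57). These shares, 15.4% and 7.69%, stood near the 10.7% of all genes tested that were higher and the 10.8% that were lower. For complex III, Uqcc2 (0.37) and Ttc19 (0.53) were higher and Uqcc1 (-0.39) was lower of 7 factors. For complex II, 1 of 4 factors, Sdhaf1, was higher (0.43). Sdhaf2, which helps to attach the flavin to Sdha, had -0.23 and did not pass. The 5 factors of complex V had log2 fold changes from -0.21 to 0.23, and 0 of them passed in edgeR or DESeq2, although 1, Fmc1, had an unadjusted edgeR p under the threshold.

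Of 13 citric acid cycle enzymes other than complex II 4 were lower (30.8%, against 10.8% of all genes tested), with 12 of 13 values below 0 and a median of -0.18. Their median transcript length was 2544 bases. Of the 618 other genes with over 2000 and up to 3000 bases compared above, 31.6% were lower, with a median of -0.20. Among the lower ones were Ogdh, a subunit of oxoglutarate dehydrogenase (log2 fold change -0.84), Fh1 (-0.45) and Suclg2 of succinyl-CoA ligase (-0.36). Fh1, fumarase, uses the fumarate that Sdha makes. After the joint correction Ogdh (-0.75) and Fh1 (-0.36) passed. Of 14 regulators of nuclear respiratory genes, with a median transcript length of 2945 bases, 4 were lower (28.6%, against 10.8% of all genes tested). They were Nrf1 (-0.48, adjusted p = 0.00362), the GABP subunits Gabpa (-0.49) and Gabpb1 (-0.64), and the coactivator Pprc1 (-0.57), and all 4 passed after the correction too. With the sex covariate the enzymes and regulators named did not pass (adjusted p = 0.0577 for Ogdh and 0.0616 for Nrf1). Esrra rose by 0.62 on the log2 scale (adjusted p = 0.043) and did not pass after the correction (0.44). Gabpa lies head to head with Atp5j and their exons overlap on opposite strands. Whether the counting used strand is not stated, so reads in the overlap cannot be assigned, and Gabpa had 2715 normalized counts in WT against 19576 for Atp5j. Other higher genes with an exon overlap on the opposite strand were Cox4i1, Cox6c, Cox6a2, Atp5d, Atp5l and Atp5o. The largest neighbour among these was Emc8 beside Cox4i1, with a log2 fold change of 0.08 that did not pass, and Cbarp beside Atp5d had mean normalized counts of 331 (WT) and 620.3 (DKO).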

How the data were processed

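Polyadenylated RNA of 4 WT and 4 DKO S0 samples was reverse transcribed by template switching with a low-input kit. The submitters' processing notes and the study's methods name fastp 0.21.0 for trimming, HISAT2 2.2.1 for alignment to mm10 and StringTie 1.3.3b. The authors deposited 1 table of whole-number counts per gene, from StringTie's prepDE step, which turns coverage and transcript length into counts. Whether strand was used is not given in the sources used here. The table held 52636 gene IDs, of which 52403 matched GENCODE M21 (GRCm38), from which symbols, lengths and GC content came (1 transcript per gene, by APPRIS rank, support level, then shortest).

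Groups were taken from the genotype labels. Genes passing filterByExpr (17378) were fitted with edgeR 4.0.16 (TMM, robust quasi-likelihood, R 4.3.3), with Benjamini-Hochberg adjustment over all of them. All adjusted p-values are from this fit or its stated alternatives. Normalized counts are counts scaled to the mean effective library size. Single genes were also compared by an exact two-sided permutation test (70 arrangements). The members and lists were chosen with earlier results of these data known. Described one by one were the 15 called members with the smallest p, core subunits and isoform sets. Cox6c, Atp5s, Sdhc, Sdhd, Atp5e and other members fall outside that rule and were named so that the complexes are complete, after their values were seen. Non-members came from the lists, by smallest p, and neighbours, marker names, Sdhaf2 and Fmc1 were added after values were seen. Single values of some list genes are not reported here.

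The fit was repeated with upper-quartile scaling, with no TMM factors, with DESeq2 1.42.0 and with 2 other filters, and leaving out each library. Further alternatives were the replicate number as a block, a sex covariate from Y-linked genes, protein-coding genes only, and a loess correction (span 0.5) for transcript length and GC content, which was split into its parts after the data were seen. In simulated data the fit called 63 of 110 changes of 1 on the log2 scale, 69 of 90 changes of 2 and 9 of 17178 unchanged genes. The changed genes were drawn from all genes tested, so these shares need not hold for the members. A gene that did not pass may still have changed. Counting intervals are not given, since 4 libraries per group carry the error. Same-numbered WT and DKO libraries did not deviate together. The p-values set the difference between groups against the spread between these libraries, and whether a library came from a single liver is not stated.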

Additional observations from a re-analysis of the deposited data

Results flagged for a closer look

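In each group of 4 libraries, the gap between the lowest or highest library and its nearest neighbour was divided by the range of the group. Of 90 groups of normalized counts examined, 5 exceeded the 95% limit for 4 values, and chance alone flags about 1 in 20. In all 5 the library that stood apart was DKO 1, and it was the lowest. For Atp5b the ratio was 0.941, with DKO 1 at 63905 and the other DKO libraries at 78007 to 78895. For Uqcrc2 it was 0.914 (11145 against 13606 to 13836), and for Cyc1 0.893 (14626 against 20206 to 20874). For Cox4i1 it was 0.87 (38038 against 45117 to 46177), and for Sdhb 0.841 (16618 against 20731 to 21508). DKO 1 also had the highest sum of mesenchyme markers (47325) and the lowest sum of neutrophil and myeloid markers (5399). Their part in these values was not tested. Without DKO 1, 25 members were higher and 1 was lower, beside 10.8% and 11.3% of all genes.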

How the results depend on the processing

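With the replicate block, 12 members were higher and 1 lower, and 13 of the 18 calls were kept. The numbers do not pair the libraries, since same-numbered libraries correlated at -0.09 to 0.04 and none correlated best with its own number. Leaving out 1 library gave 4 (without WT 1 or WT 4) to 25 (without DKO 1) higher and 1 to 3 lower (3 without DKO 3). It also gave 5 without WT 2, 8 without DKO 2, 9 without DKO 3 and 11 without DKO 4, and the cause was not tested. The share of all genes that were higher ran from 4.74% (without WT 1) to 10.8% (without DKO 1) in these fits. Sdha, Cox6a2, Uqcr11, Uqcrq and Atp5k were called in each of these fits. With no low-count filter, where 30390 genes share the adjustment, 9 were higher, beside 4.78% of all genes. Without TMM 3 were lower, and DESeq2 gave 2 lower (17 higher). The sex covariate gave 7 higher and 0 lower, beside 2.74% and 3.56% of all genes. Its medians were 0.29 (III) and 0.39 (V), and the median log2 fold change of complex II was -0.0063. A log2 fold change beyond 1 left 1 higher and 0 lower. Upper-quartile scaling moved the median of all genes from 0.03 to 0.14, all calls to 14.3% higher and 7.15% lower, and the medians of complexes III and V to 0.23 and 0.39, for 21 higher and 1 lower member. The medians of DESeq2 and of the unfiltered fit over all genes were 0.14 and 0.13.

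The correction for GC content and length gave 1 higher and 5 lower, beside 8.25% and 9.09% of all genes. The medians were -0.0498 (III), -0.029 (IV) and -0.0399 (V). The correction turned 23 of the 37 positive members negative. Among these, the members past the threshold before or after it were Atp5d (-0.13), Atp5g2 (-0.42), Atp5k (-0.003), Cox4i1 (-0.018), Cox6a1 (-0.26), Cox6c (-0.029), Uqcr10 (-0.0498) and Uqcr11 (-0.0135). Length alone gave 1 higher and 4 lower, with medians of 0.0034 (III), -0.0545 (IV) and -0.013 (V), and turned 17 negative, of which Atp5g2 (-0.32), Atp5h (-0.013) and Cox6c (-0.062) were past the threshold before or after it. GC content alone gave 2 lower (15 higher). The 2 single corrections were chosen after the data were seen. Many small subunits have processed copies in the mouse genome, and reads shared with them or with antisense neighbours could not be assigned here. Sex, litter and genotype overlap in this design.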
